A study of Homo sapiens with 4 samples.

Results

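CD74 and 9 genes of antigen presentation by MHC class II were followed in the human breast cancer cell line MDA-231 after TARBP2, a double-stranded RNA-binding partner of DICER1, was over-expressed. Total RNA was taken 48 hours after transient transfection and hybridised to Illumina expression BeadChip arrays. The cells carried either a plasmid with TARBP2 behind the CMV promoter (2 TARBP2 arrays) or the matching GFP plasmid (2 GFP arrays), per the sample labels. The series' design text calls the control cells mock-transfected, so whether they carried the GFP plasmid is not settled, and the share of cells that took up plasmid was not measured. The labels do not say whether replicates were separate cultures, so the errors given below measure only the spread between these arrays. The 10 genes were CIITA, HLA-DRA, HLA-DRB1, HLA-DPA1, HLA-DPB1, CD74, HLA-DMA, HLA-DMB, CTSS and IFI30, out of 15733 genes that could be named on the arrays, and they were read by 13 probes. CD74 was picked because it rose strongly in this same comparison and the other genes because they act with it. The values of all 10 are therefore given as a description, without p-values. How many passed the threshold used for all genes is counted below, and nothing is read from that count.

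MHC class II molecules are pairs of an alpha and a beta chain that display peptides from endosomes to CD4+ T cells. CIITA, a co-activator that binds no DNA itself, switches on the class II genes by joining factors bound to the X and Y boxes of their promoters, and interferon gamma is its best known inducer outside immune cells. CD74, the invariant chain, fills the groove of new class II molecules and guides them to endosomes, where proteases such as cathepsin S trim it and HLA-DM exchanges its last fragment for antigen peptide. These genes are a hallmark of dendritic cells, macrophages and B cells, but many epithelial tumours also express them.

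Levels are log2 intensities after background correction and quantile normalisation. A probe was called detected on an array where its deposited detection p-value was under 0.05, and probes entered the fit if detected on at least 2 arrays, which 22123 of 47323 probes were. The dimmest detected probe lay at a log2 level between 5.04 and 5.11 on the 4 arrays. Differences are TARBP2 minus GFP with the standard error (SE) of the fit, from 2 arrays per group. TARBP2 itself had a log2 level of 15.11 and 15.12 on the TARBP2 arrays, against 7.26 and 6.97 on the GFP arrays, by its brightest probe. Its other probe had 7.27 and 7.28 on the TARBP2 arrays, against 7.53 and 7.46 on the GFP arrays, and did not pass (log2 difference -0.22, limma adjusted p = 0.0722). Between 44.1% and 45.9% of probes were detected per array. Of the markers of the line that could be named, CD44, EGFR, TGFBI, KRT7 and KRT8 were detected on all arrays, KRT18 only on the GFP arrays and SPARC on none. Of luminal breast markers, ESR1, PGR, ERBB2 and TFF1 were detected on no array, while FOXA1, CDH1 and TFF3 were detected on no TARBP2 array but on both GFP arrays, and GATA3 was detected only in the TARBP2 group. On the GFP arrays TFF3 had 9.30 and 9.25 and FOXA1 7.58 and 7.58, at least 18.8-fold and 5.79-fold above the TARBP2 arrays. CDH1 and GATA3 lay near background where detected. Of 6 tested markers of the line, 1 rose and 3 fell at a limma adjusted p under 0.05. The log2 difference was 0.65 for TGFBI, -0.72 for EGFR and -1.16 for KRT7. The part of these differences between the cells of the groups in the results below was not tested. Since RNA of whole cultures was measured, more cells with a transcript and more transcript per cell cannot be told apart.

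Of the 10 class II genes, 6 were higher on the TARBP2 arrays at an adjusted p under 0.05 over all detected probes, namely CD74, HLA-DRA, HLA-DPA1, HLA-DMA, HLA-DMB and IFI30. The other 4, CIITA, HLA-DRB1, HLA-DPB1 and CTSS, were too dim for the fit. By the same rule 23.5% of 9167 tested genes rose and 45.7% changed in either direction, as did 40.3% of all detected probes, and nothing is read from the count of 6 because CD74 was chosen on this comparison and genes bright in only 1 group pass the detection filter through that group. Over all 10 genes, detected or not, the median log2 difference was 1.13, beside a median of 0.0038 over all 15733 named genes. This median depends on the probe taken for HLA-DRA: the probe of highest mean level over the 4 arrays gave 1.40, the other 3.61. Both TARBP2 arrays lay above both GFP arrays for 9 of the 10 genes, against 30.6% of all named genes. These 9 include HLA-DRB1 and HLA-DPB1, detected on no array, and CIITA, detected on 1, whose order lies within background. Nothing is read from this count either, since CD74 was chosen on this comparison. CTSS was the gene whose groups overlapped.

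**Figure D1:**
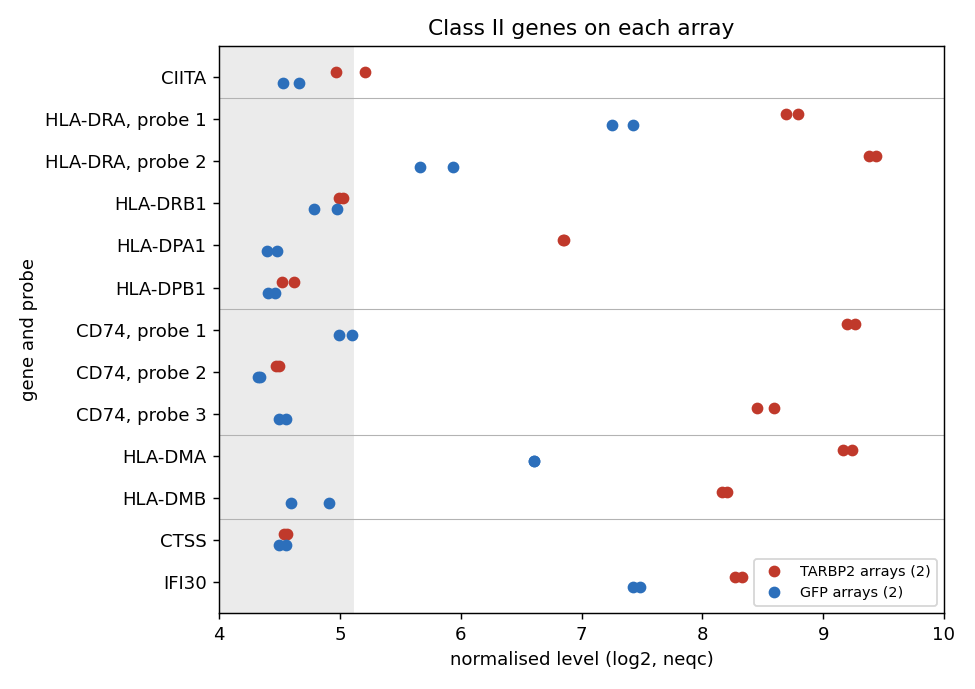
Normalised log2 level of each of the 13 probes of the 10 class II genes on each of the 2 TARBP2 arrays (red) and the 2 GFP arrays (blue). Grey marks levels up to 5.11, the highest of the 4 arrays' dimmest detected levels, and grey lines separate the roles of the genes. The TARBP2 points of CD74 (probes 1 and 3), HLA-DRA, HLA-DPA1, HLA-DMA, HLA-DMB and IFI30 stand to the right of the GFP points, while HLA-DRB1, HLA-DPB1, CTSS and CD74 probe 2 lie within the grey zone in both groups.

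CD74, the invariant chain, was at background on the GFP arrays and bright on the TARBP2 arrays by 2 of its 3 probes. The brightest CD74 probe had log2 levels of 9.27 and 9.20 on the TARBP2 arrays, against 5.10 and 4.99 on the GFP arrays. In raw brightness this probe read 659.7 and 637.7 on the TARBP2 arrays, against 83.8 and 81.0 on the GFP arrays. It was not above background on either GFP array, so CD74 was at least 17.6-fold higher on the background-corrected scale. The measured log2 difference of 4.19 was 3.07 from the deposited quantile-normalised intensities, 3.01 without background correction and 2.07 on the authors' inverse hyperbolic sine scale, so the size of the bound holds for the background-corrected scale alone. A separate probe, tied to another CD74 transcript, had levels of 8.59 and 8.45 on the TARBP2 arrays, against 4.50 and 4.55 on the GFP arrays, which is at least 10.8-fold higher. The remaining CD74 probe was not above background on any array, at 4.50 and 4.47 on the TARBP2 arrays against 4.33 and 4.32 on the GFP arrays. The brightest probe and this dim one share 1 transcript accession, whose log ratio in the authors' deposited table is 1.09, while that table gives 1.68 for the accession of the separate probe. The ratio of the shared accession is the mean of its 2 probes, the dim one included, and the authors' scale compresses dim signals.

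The promoters below are shown because class II genes are known to be under shared control through the X and Y boxes. They run from 250 bases before to 50 bases after the gene start as RefSeq gives it on GRCh38.p14, all on the minus strand, and 7 of the 10 genes had an entry. Capitals mark TGATGA, letters found in the X box of these promoters, and the first CCAAT letters of the Y box on either strand (ATTGG when reversed) that follow it after 5 to 40 bases. Further CCAAT letters in the HLA-DMA and HLA-DRB1 promoters are left in lower case. The letters were chosen after the promoters were read. CD74 lies at chr5:150412861-150413160, HLA-DMA at chr6:32953048-32953347 and HLA-DRB1 at chr6:32589799-32590098.

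CD74 promoter: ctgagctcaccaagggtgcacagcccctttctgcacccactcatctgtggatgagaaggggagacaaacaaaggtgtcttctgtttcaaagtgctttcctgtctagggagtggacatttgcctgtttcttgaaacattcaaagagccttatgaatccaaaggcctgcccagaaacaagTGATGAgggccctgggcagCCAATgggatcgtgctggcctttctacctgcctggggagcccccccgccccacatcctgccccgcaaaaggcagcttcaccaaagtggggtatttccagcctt

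HLA-DMA promoter: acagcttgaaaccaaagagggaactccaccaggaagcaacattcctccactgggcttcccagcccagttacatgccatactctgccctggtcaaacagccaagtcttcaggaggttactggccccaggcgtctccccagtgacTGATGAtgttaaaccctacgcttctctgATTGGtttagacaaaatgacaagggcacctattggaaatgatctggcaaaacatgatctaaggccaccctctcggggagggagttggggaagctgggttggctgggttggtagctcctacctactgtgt

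HLA-DRB1 promoter: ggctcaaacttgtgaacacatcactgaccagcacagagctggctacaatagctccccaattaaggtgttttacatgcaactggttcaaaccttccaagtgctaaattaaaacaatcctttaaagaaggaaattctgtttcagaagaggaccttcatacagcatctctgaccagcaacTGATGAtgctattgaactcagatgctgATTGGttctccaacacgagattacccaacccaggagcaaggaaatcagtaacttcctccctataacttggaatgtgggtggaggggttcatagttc

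TGATGA began 72 bases before the start of CD74, 107 bases before that of HLA-DMA and 73 bases before that of HLA-DRB1. CCAAT letters followed after a gap of 13 bases in CD74, 22 in HLA-DMA and 21 in HLA-DRB1. Of 35116 promoters of this length, 10.9% held TGATGA on either strand, 34.6% held CCAAT and 0.712% held TGATGA followed by CCAAT letters after 5 to 40 bases. HLA-DMB held both sets of letters outside that spacing, HLA-DPB1 and IFI30 held CCAAT only, and of 2 HLA-DPA1 entries 1 held TGATGA only. None of the promoters of these 7 genes held GAAA, any pair of bases and GAAA again, the letters of an interferon response element (3.57% of all promoters), on either strand. A match is a description of letters, and the set includes HLA-DRB1, whose probe stayed at background.

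Among the peptide-presenting chains, the alpha chains HLA-DRA and HLA-DPA1 were higher on the TARBP2 arrays, while the probes of the beta chains HLA-DRB1 and HLA-DPB1 lay at background. HLA-DRA, the near-invariant alpha chain of HLA-DR, was read by 2 probes of 1 accession. The first had levels of 8.69 and 8.79 on the TARBP2 arrays, against 7.42 and 7.25 on the GFP arrays, a log2 difference of 1.40 ± 0.10 (SE, n = 2 arrays per group) or 2.65-fold. The other had levels of 9.44 and 9.38 on the TARBP2 arrays, against 5.66 and 5.93 on the GFP arrays, a log2 difference of 3.61 ± 0.11 (SE, n = 2 arrays per group) or 12.2-fold. Both probes were detected on all 4 arrays with no overlap between the groups, but they disagreed on the size of the difference.

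HLA-DPA1, the alpha chain of HLA-DP, had levels of 6.85 and 6.86 on the TARBP2 arrays, against 4.47 and 4.39 on the GFP arrays. It was not above background on either GFP array and was at least 3.38-fold higher after background correction. Its log2 difference was 2.42 on that scale, 1.66 from the deposited quantile-normalised intensities and 1.59 without background correction. HLA-DRB1, a beta chain of HLA-DR, had levels of 5.02 and 4.99 on the TARBP2 arrays, against 4.78 and 4.98 on the GFP arrays, and HLA-DPB1, the beta chain of HLA-DP, had 4.62 and 4.52 on the TARBP2 arrays, against 4.40 and 4.46 on the GFP arrays. Neither beta chain was above background on any array, so no fold is given. The HLA-DRB genes are near-identical to each other and differ between alleles, and no probe sequences were used here, so a level read at background sets no firm limit on these chains.

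HLA-DRB3, a second HLA-DR beta chain, was bright in both groups, with 9.08 and 9.11 on the TARBP2 arrays against 8.86 and 8.90 on the GFP arrays. Its log2 difference of 0.22 ± 0.07 (SE, n = 2 arrays per group) did not pass in limma (adjusted p = 0.0747). Since the HLA-DRB genes are near-identical, the level read for HLA-DRB3 may include other HLA-DRB transcripts, which was not tested. HLA-DRB6, a transcribed pseudogene of the family that was noticed after its values were seen, had 7.32 and 7.30 on the TARBP2 arrays against 4.96 and 4.70 on the GFP arrays, at least 4.65-fold higher from below background. Of 9 further class II chains and HLA-DO subunits, 6 could be named and only HLA-DRB3 and HLA-DOB were bright enough to test, and neither passed. HLA-DOB, a subunit of the HLA-DM inhibitor HLA-DO, had a log2 difference of 0.08 ± 0.10 (SE, adjusted p = 0.568 in limma, n = 2 arrays per group).

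Both subunits of HLA-DM, which exchanges the CD74 fragment for peptide, were higher on the TARBP2 arrays. HLA-DMA had levels of 9.24 and 9.16 on the TARBP2 arrays, against 6.61 and 6.60 on the GFP arrays, and was detected on every array. Its log2 difference was 2.59 ± 0.08 (SE, n = 2 arrays per group), or 6.03-fold. HLA-DMB had levels of 8.16 and 8.21 on the TARBP2 arrays, against 4.91 and 4.59 on the GFP arrays. HLA-DMB was not above background on either GFP array, which makes it at least 8.52-fold higher after background correction. Its log2 difference was 3.43 on that scale, 2.35 from the deposited quantile-normalised intensities and 2.28 without background correction.

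The endosomal enzymes differed from each other. IFI30, a thiol reductase that opens the disulphide bonds of antigens, had levels of 8.33 and 8.27 on the TARBP2 arrays, against 7.42 and 7.48 on the GFP arrays. Its log2 difference of 0.85 ± 0.08 (SE, n = 2 arrays per group), or 1.80-fold, was the smallest among the 6 detected genes, and it was already well above background on the GFP arrays. CTSS, cathepsin S, the protease that trims CD74 in antigen-presenting cells, had 4.56 and 4.54 on the TARBP2 arrays, against 4.55 and 4.50 on the GFP arrays, and was not above background on any array.

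CIITA, the master regulator, was near background throughout. It had levels of 4.97 and 5.20 on the TARBP2 arrays, against 4.66 and 4.53 on the GFP arrays, and was detected on 1 TARBP2 array only. The groups did not overlap. The mean of the TARBP2 arrays did not exceed the mean of the dimmest detected levels on the GFP arrays, so no bound and no fold is stated. The CIITA accession of this probe is 1 of several RefSeq transcripts of the gene, and whether the probe reads them all was not tested.

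Genes next to the class II genes on chromosome 6 were looked at for comparison. Between HLA-DRA and HLA-DPB1 in gene order lay 9 other named genes, of which 5 were bright enough to test. TAP1, a peptide transporter subunit of the MHC class I pathway, had 11.25 and 11.10 on the TARBP2 arrays against 10.44 and 10.39 on the GFP arrays, and TAP2, its partner, had 10.32 and 10.28 against 10.00 and 10.06. TAP1 and TAP2 both rose, with log2 differences of 0.76 and 0.27 (limma adjusted p = 0.00428 and 0.043). BRD2, a bromodomain protein encoded beside HLA-DMA, had a log2 difference of -0.15, and the flanking 15 genes on each side gave a median of -0.09 over 18 tested genes, from -1.01 for GPSM3 to 0.51 for DXO. For CD74 on chromosome 5, 50 neighbouring tested genes had a median log2 difference of 0.02, and for IFI30 on chromosome 19 the median was -0.06. Of the 50 neighbours of CD74, 10 rose, 13 fell and 1 lay above CD74. Of the 50 of IFI30, 2 rose, 13 fell and 1 lay above IFI30. Over all tested genes 23.5% rose and 22.2% fell.

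**Figure D2:**
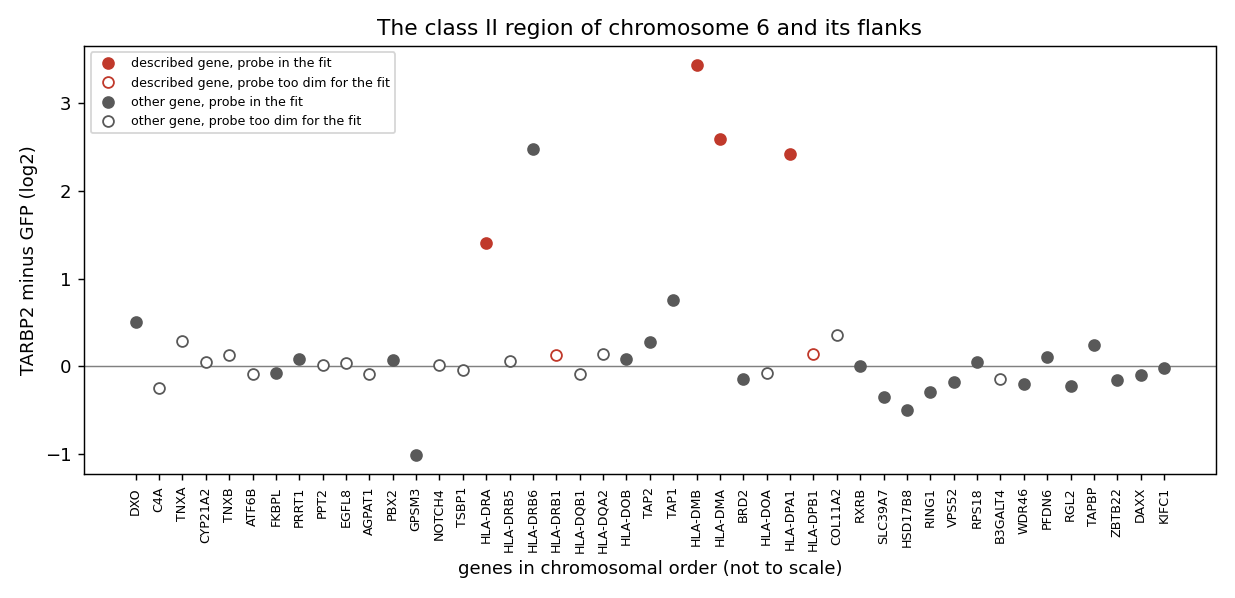
Log2 difference (TARBP2 minus GFP, vertical axis) of 45 named genes in chromosomal order across the class II region of chromosome 6 and 15 genes on each side (horizontal axis, not to scale). Red marks the class II genes described here and grey other genes, filled where the brightest probe was in the fit and open where it was too dim. HLA-DMB, HLA-DMA and HLA-DPA1 stand between 2.42 and 3.43 and HLA-DRA at 1.40, HLA-DRB6 is the grey point at 2.48, and flanking genes in the fit lie between -1.01 and 0.51. The other HLA-DRA probe, not drawn, gave 3.61.

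Genes around the 10 were taken from lists of the class II pathway, 74 genes in all, of which 45 were bright enough to test. Of these 45, 14 rose and 6 fell on the TARBP2 arrays (limma, adjusted p under 0.05 over all detected probes), beside 23.5% and 22.2% of all tested genes, with a median log2 difference of 0.19 beside -0.0022 over all tested genes. Without TARBP2 replicate 1, 11 of the 45 passed, and likewise 11 without TARBP2 replicate 2. The class II genes and these lists share all 4 arrays.

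The list of the class II promoter complex held factors of the X and Y boxes, co-activators and EZH2. Of its 9 tested genes, RFX5, CARM1 and EP300 rose, RFXANK fell and 5 did not pass, with a list median of 0.06. Of all tested genes, 23.5% rose and 22.2% fell. RFX5, the X box binding subunit, had 10.80 and 10.84 on the TARBP2 arrays against 10.36 and 10.28 on the GFP arrays (log2 difference 0.50 ± 0.08, SE, limma adjusted p = 0.00861, n = 2 arrays per group). RFXANK, its partner, fell by 0.43 ± 0.11 (SE, limma adjusted p = 0.0394, n = 2 arrays per group), with 7.48 and 7.75 on the TARBP2 arrays against 8.05 and 8.04 on the GFP arrays. CARM1, an arginine methyltransferase, and EP300, a histone acetyltransferase that works with CIITA, had log2 differences of 0.43 and 0.30. A dimmer RFX5 probe did not pass (log2 difference 0.20, limma adjusted p = 0.386).

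In the interferon gamma route to CIITA, both receptor chains rose. IFNGR2 had 12.05 and 12.10 on the TARBP2 arrays against 11.57 and 11.51 on the GFP arrays, a log2 difference of 0.54 ± 0.08 (SE, limma adjusted p = 0.00718, n = 2 arrays per group), and IFNGR1 rose by 0.32 ± 0.08 (SE, limma adjusted p = 0.0335, n = 2 arrays per group). IRF1, a transcription factor that binds the CIITA promoter, had a log2 difference of 0.28 and did not pass (limma adjusted p = 0.0694). The median over 8 tested genes of this list was 0.26, and IFNG itself was not detected.

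Of 14 tested endosomal proteases and inhibitors 6 rose and 2 fell, beside 23.5% and 22.2% of all tested genes, with a median of 0.19. CST6, cystatin M, an inhibitor of cathepsins V and L and of legumain, was not above background on the GFP arrays and rose, with 6.79 and 6.69 on the TARBP2 arrays against 5.06 and 4.90 on the GFP arrays, at least 3.12-fold higher (limma adjusted p = 0.000593). CST6 entered the fit through the TARBP2 arrays alone, so its p carries little weight. CTSV and CTSF, cathepsins that can trim CD74 where cathepsin S is lacking, had log2 differences of 0.96 and 0.98 (limma adjusted p = 0.00151 and 0.00187), and CTSL, another such protease, rose by 0.49. CTSC, which activates granule serine proteases, had 5.83 and 5.90 on the TARBP2 arrays against 6.91 and 6.92 on the GFP arrays, a fall by 1.05 ± 0.08 on the log2 scale (SE, limma adjusted p = 0.00124, n = 2 arrays per group).

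Among genes of class II trafficking, CD83, which keeps class II at the cell surface by opposing MARCHF1, had 8.89 and 9.00 on the TARBP2 arrays against 7.48 and 7.47 on the GFP arrays. CD83 rose by 1.47 ± 0.08 (SE, limma adjusted p = 0.000639, n = 2 arrays per group), and its dimmer probe rose by 1.63. CD82, a tetraspanin of class II compartments, rose by 1.52 ± 0.11 (SE, limma adjusted p = 0.00135, n = 2 arrays per group). Of 7 tested genes of this list these 2 rose, beside 23.5% of all tested genes, and the other 5 did not pass. RAB7A, a GTPase of late endosomes, and MARCHF8, a ligase that ubiquitinates class II, had log2 differences of 0.19 and 0.33 and did not pass (limma adjusted p = 0.104 and 0.145).

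CD74 is also a surface receptor for the cytokine MIF, with CD44 and the chemokine receptors CXCR4, CXCR2 and ACKR3 as partners. MIF had 13.53 and 13.54 on the TARBP2 arrays against 13.15 and 13.12 on the GFP arrays, a rise by 0.40 ± 0.07 (SE, limma adjusted p = 0.0131, n = 2 arrays per group). DDT, a relative of MIF, had a log2 difference of 0.21 and did not pass (limma adjusted p = 0.0797). CXCR4 had 4.53 and 4.74 on the TARBP2 arrays, both not above background, against 5.83 and 5.45 on the GFP arrays, and was at least 1.51-fold lower (limma adjusted p = 0.00895). CXCR4 entered the fit through the GFP arrays alone, so its p carries little weight. ACKR3 fell by 0.45 ± 0.08 (SE, limma adjusted p = 0.0143, n = 2 arrays per group). CD44 stayed among the brightest genes of the line, with 13.34 and 13.32 on the TARBP2 arrays against 13.39 and 13.31 on the GFP arrays, and did not pass (limma adjusted p = 0.855).

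**Figure D3:**
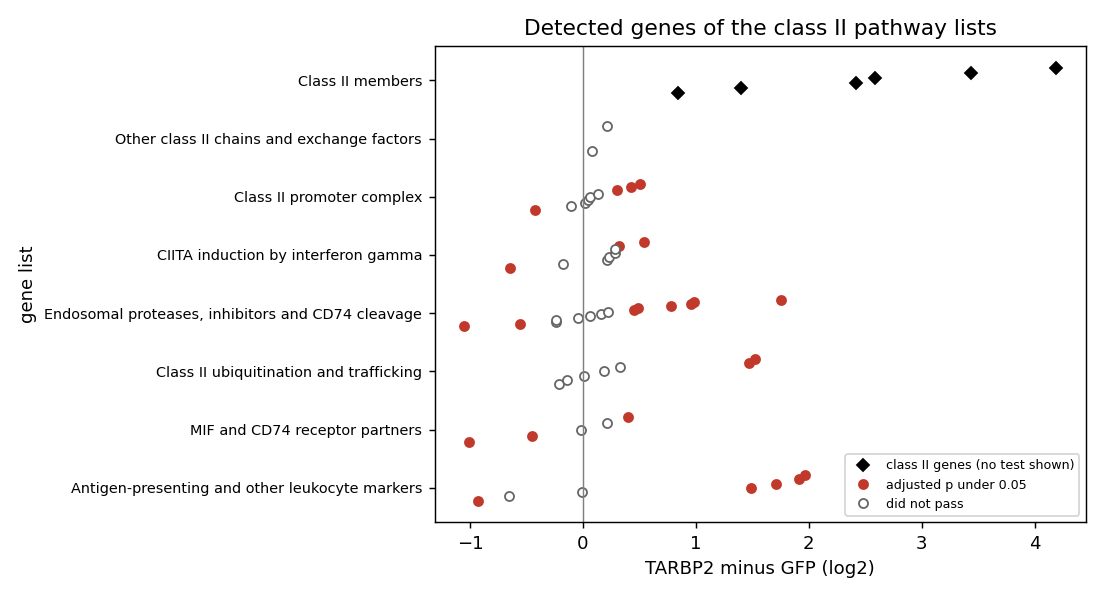
Log2 difference (TARBP2 minus GFP) of each detected gene in the class II set and in 7 surrounding gene lists, 1 point per gene by its brightest detected probe. Black diamonds are the 6 detected class II genes, between 0.85 and 4.19, red points passed at an adjusted p under 0.05 and open points did not. CD83 and CD82 at 1.47 and 1.52 and CST6 at 1.76 are the highest of the pathway lists, and CXCR4 and CTSC stand below 0.

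Markers of leukocytes, the cells that usually carry class II, were examined beside the 10 genes. Of 21 listed, 16 could be named and 8 were detected on no array, among them PTPRC (CD45, present on all leukocytes), the B cell gene CD79A, the macrophage integrin ITGAM, the T cell gene CD3E and the co-stimulatory ligands CD80 and CD86. The brightness of these 16 genes together came to 2894.3 and 2841.5 on the TARBP2 arrays, against 2580.6 and 2505.6 on the GFP arrays. Without LAPTM5 the sum over 15 genes was 2244 and 2271.9 on the TARBP2 arrays, against 1434.1 and 1408.9 on the GFP arrays. LAPTM5 was the only tested marker that passed as falling, so leaving it out favours a rise. Both sums are of raw intensities without background correction, and the 8 genes detected on no array add only background to them. Of 7 tested, CD14, CD40, CSF1R and CD8A rose and LAPTM5 fell, beside 23.5% and 22.2% of all tested genes, and the part of these genes in the class II results was not tested. CD40, a receptor by which T cells stimulate presenting cells, had 8.29 and 8.17 on the TARBP2 arrays against 6.55 and 6.09 on the GFP arrays (log2 difference 1.91 ± 0.17, SE, limma adjusted p = 0.002, n = 2 arrays per group). CD14, a lipopolysaccharide co-receptor, and CSF1R, the receptor of macrophage growth factor, had log2 differences of 1.96 and 1.71 (limma adjusted p = 0.000863 and 0.000881), and CD8A rose by 1.49. CSF1R had 6.91 and 6.70 on the TARBP2 arrays against 5.16 and 5.03 on the GFP arrays. It was detected on only 1 GFP array and lay near background in that group, so the size of its difference is uncertain. LAPTM5, a lysosomal protein of blood cells, fell by 0.93 ± 0.11 (SE, limma adjusted p = 0.00434, n = 2 arrays per group), the opposite direction to CD74.

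The genes whose pattern over the 4 arrays lay nearest to that of the brightest CD74 probe, by Euclidean distance between centred log2 levels, were LAIR2, KRT81, HSPA7, COL6A3 and HSPA1A. The distances were 0.14 for LAIR2, a secreted collagen-binding receptor, 0.19 for KRT81, a hair keratin, and 0.20 for HSPA7, a heat shock pseudogene. They were 0.33 for COL6A3, a collagen VI chain, and 0.51 for HSPA1A, a heat shock protein. HSPA7 and HSPA1A have near-identical relatives, so the level of either may include a relative. With 4 arrays in 2 groups this ranking mostly picks genes with a log2 difference near that of CD74.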

How the data were processed

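Transcript levels were read on 4 arrays, 2 per plasmid, grouped by the sample labels. The deposited intensity of each probe is not normalized and has a deposited detection p-value beside it, per the file headers. The authors also deposited intensities whose arrays share nearly the same distribution of values, as in quantile normalisation. The submitters' processing notes name lumi without saying for which step. The authors' table of ratios gives, by sequence accession, a ratio named logFC in the file headers. The ratio is deposited as if on a log2 scale, with the base unstated. The table also gives a class, down-regulated or background, that was not used for tests. All 10 genes were in the background class.

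Accessions were tied to probes where the authors' log ratio equalled the TARBP2 minus GFP difference of 1 scaled inverse hyperbolic sine of the quantile-normalised intensities to within 1e-09 (33115 of 39747 accessions, against 12 in a shifted table), or the mean of a pair of probes (192, against 6). The dim CD74 probe, the brightest CD74 probe, both HLA-DRA probes and HLA-DRB6 were named through pairs. RefSeq accessions of GRCh38.p14 gave symbols to 17383 probes of 15733 genes. In simulated data the right probe was found for 99.9% of single accessions. The simulated ratios came from the same fitted curve, so this checks the matching step and not the curve. Only 20 simulated pairs were accepted, of which 20 were right.

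Intensities were processed by neqc (offset 16) and fitted with limma 3.58.1 under R 4.3.3, 2-sided, with Benjamini-Hochberg adjustment over all detected probes, on 2 residual and 2.81 prior degrees of freedom. Each gene was read by its brightest probe. For probes dim throughout 1 group the fold was bounded: those arrays took the level of their dimmest detected probe or the probe's own level if that was higher. Named genes are all 10 class II genes, TARBP2, up to 4 genes of smallest p per list and the 5 nearest to CD74 in pattern, while CTSL, CD44, TAP1, TAP2, BRD2, HLA-DRB6, GPSM3 and DXO were picked with their values in view. The 10 genes and the lists were chosen with earlier results of these data known. The number of arrays limits the precision. Some genes of the lists are not reported here.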

Additional observations from a re-analysis of the deposited data

How the results depend on the processing

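The median log2 difference over the 10 class II genes, 1.13 with neqc, was 0.94 from the deposited quantile-normalised intensities and 0.94 by quantile normalisation without background correction. In alternatives added after the data were seen it was 0.64 on the authors' inverse hyperbolic sine scale and 0.85 over the 9 genes on accessions tied to 1 probe, which leaves out HLA-DRA. Leaving out 1 array at a time gave 1.10 to 1.15. CD74 stayed between 2.07 and 4.24 and HLA-DPA1 between 0.77 and 2.46 over 14 alternatives each, all above 0, and of the 10 genes CTSS was the one that went below 0, in 2 of 14. The 20 changed genes of the pathway lists became 11 to 16 with 1 array left out (the lone array of a group is then assumed to vary like the other group), with 11 when either TARBP2 array was left out, and 17 to 29 in the other alternatives. The leukocyte count of 5 stayed between 4 and 6. Same-numbered arrays did not deviate together (r = 0.0062), and with replicate number as a block 18 pathway genes and 5 leukocyte markers passed and the class II median was unchanged at 1.13. Requiring detection on all 4 arrays leaves 3 class II genes in the fit, since the others are at background on the GFP arrays. Signals near background limit every fold of CD74, HLA-DMB and HLA-DPA1 to a lower bound.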
